A study of Mus musculus with 16 samples.

Results

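S-phase cells, named for the phase in which a cell copies its DNA, were examined in bone marrow stromal cell cultures of 4 mouse genotypes. They were chosen by a rule on measured RNA, and DNA copying itself was not measured. For each cell with at least 500 detected genes and under 20% mitochondrial UMIs (unique molecular identifiers, the counted RNA molecules), 7 genes (*Hist1h1b*, *Hist1h3c*, *Hist1h2ae*, *Hist1h2ap*, *Hist1h2ab*, *Pclaf* and *Rrm2*) were summed per 10000 gene UMIs into an S score. In the same way 10 genes of G2 and mitosis (*Cenpf*, *Hmmr*, *Ube2c*, *Cdc20*, *Aspm*, *Birc5*, *Cenpe*, *Prc1*, *Tpx2* and *Plk1*) were summed into an M score. Cells with an S score of at least 15 that was above their M score were taken as S-phase cells, 694 of the 15847 cells that passed the filter. Of the others, 701 were G2 and mitotic cells, 1 lay between the groups, and the 14451 cells with an S score under 15 and an M score under 10 were the comparison cells.

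All mice were 12-week-old male C57BL/6J littermates, and all carried the floxed *Fgf23* allele (*Fgf23* fl/fl). WT mice were *Dmp1*+/+ without Dmp1-cre, Fgf23cKO mice were *Dmp1*+/+ with Dmp1-cre, Dmp1KO mice were *Dmp1*-/- without Dmp1-cre, and Dmp1KO Fgf23cKO mice were *Dmp1*-/- with Dmp1-cre. The *Dmp1* deletion is global, whereas the Cre is driven by the *Dmp1* promoter, which is active in mature osteoblasts and osteocytes. Cells were cultured for 21 days in osteoblastic medium with 10 mM beta-glycerophosphate and 50 µg/ml ascorbic acid, and viable (7-AAD-negative) cells were sorted. Cultures of a genotype were tagged with CellPlex oligonucleotides, pooled and run in 1 droplet reaction, so that genotype and reaction cannot be told apart. Replicates 1 to 3 are the tagged cultures, and the numbers in parentheses or called replicate 4 are the untagged cells of the same pool. The first Dmp1KO culture was not analysed here, which left 15 of 16 samples and n = 3 tagged cultures for WT, Fgf23cKO and Dmp1KO Fgf23cKO and n = 2 for Dmp1KO. Because the cultures of a genotype shared a reaction, p-values measure the spread between cultures of 1 reaction.

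In S phase a cell fires origins of replication that were licensed in G1 and copies each chromosome with the polymerases of the replication fork. New DNA is packed as it is made, so the replication-dependent histone genes, which lie in clusters and whose mRNAs mostly end in a stem-loop rather than a poly(A) tail, are transcribed mainly in this phase. E2F factors drive many replication genes, while genes of G2 and mitosis follow later under other promoter elements. Bone marrow stromal cultures also hold macrophages, which keep dividing under the growth factor CSF1.

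S-phase cells were found in every sample. The WT cultures held 54, 74 and 74 (19 untagged), the Fgf23cKO cultures 22, 23 and 23 (42), the Dmp1KO cultures 154 and 103 (41), and the Dmp1KO Fgf23cKO cultures 25, 18 and 15 (7). They came from 5100 WT, 2367 Fgf23cKO, 6032 Dmp1KO and 2348 Dmp1KO Fgf23cKO cells, with a median depth of 7433, 33069, 21287 and 34654 UMIs per cell. WT cells were therefore the shallowest by far. Among tagged S-phase cells with macrophage markers, median depth ran from 11954 to 13443 UMIs in the WT cultures, 61432 to 71362 in Fgf23cKO, 45985 and 46252 in Dmp1KO, and 58841 to 73431 in Dmp1KO Fgf23cKO. No S-phase cell shared its barcode sequence with a cell of another sample. In the barcode lists of all 16 samples, which include the first Dmp1KO culture, sharing occurred for 44 barcodes over the 96 pairs of samples of different genotypes and for 0 over the 24 pairs within a genotype.

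The members differed widely in how strongly they met the rule. Their S score had a median of 53.9 and ran from 15.03 to 184, against a median of 0.651 in the comparison cells, of which 5361 had no UMI of the 7 genes. The M score of the members had a median of 14.97, and 451 of them (65.0%) reached the M score of 10 that comparison cells had to stay under. Both scores are part of the rule, so these values describe the choice of cells. Just inside the limit were 76 members with S scores from 15 to 20 (median 17.3), and just outside it 192 cells from 10 to 15 (median 11.8). The S score of 10 members rested on 1 or 2 UMIs. A further 51 cells had an S score of at least 15 but an M score at least as high, and were counted with the G2 and mitotic cells.

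Promoter sequences of the genes that the results turn on are shown first, because the histone H2B genes moved as a group between genotypes and the replication genes did not move with them. The promoters are RefSeq sequences of GRCm38.p6 from 250 bases before to 50 bases after each start, 32851 in all, searched on both strands. The octamer letters ATTTGCAT, a classical element of H2B promoters, were found in 1.74% of all promoters and in 5 of the 12 matched H2B promoters (41.7%). The windows of these 5 are given 5′ to 3′ on the strand of the gene, with the octamer in capitals.
*Hist1h2bb* (chr13:23746633-23746662, plus strand): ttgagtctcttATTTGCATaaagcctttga
*Hist1h2bg* (chr13:23571330-23571359, plus strand): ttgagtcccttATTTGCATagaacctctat
*Hist1h2bk* (chr13:22035780-22035809, plus strand): catttcactttATTTGCATacgaagttcta
*Hist1h2bm* (chr13:21722008-21722037, plus strand): ctctcgtctctATTTGCATaacagcgtgta
*Hist2h2bb* (chr3:96269641-96269670, plus strand): tgtgaaacctcATTTGCATacaagctctat
The octamer was also in 6 of 15 H2A promoters (40%), which can lie head to head with an H2B gene and share its window, as *Hist1h2ah* does with *Hist1h2bk*, and in 0 of 5 H1, 0 of 8 H3 and 0 of 11 H4 promoters. The shorter CCAAT letters, in 37.4% of all promoters, were in every matched H1, H2A, H2B and H3 promoter and in 3 of 11 H4 promoters (27.3%).

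For the replication and mitosis genes, the letters bound by E2F factors (TTTCCCGC or TTTGGCGC) were in 1.56% of all promoters, in 6 of 13 matched origin licensing promoters (46.2%) and in 5 of 16 replication fork promoters (31.2%). The CHR letters TTTGAA, an element of genes that peak in G2, were in 17.9% of all promoters, in 20 of 26 promoters of the list of other G2 and mitosis genes (76.9%) and in 0 of 16 replication fork promoters. They did not set G2 genes apart from histone genes, being in 10 of 12 H2B (83.3%) and 9 of 15 H2A promoters (60%). They were also in 4 of 7 promoters of the S score genes (57.1%) and 4 of 13 origin licensing promoters (30.8%). In H1, H3 and H4 promoters they were in 2 of 5, 2 of 8 and 2 of 11. One example of each is given, with the letters or their reverse complement in capitals.
*Mcm5*, E2F letters (chr8:75109349-75109378, plus strand): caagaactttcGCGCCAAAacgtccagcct
*Pclaf*, E2F letters (chr9:65890307-65890336, plus strand): gcttggagcgcGCGGGAAAgagacccattt
*Rrm2*, CCAAT (chr12:24708192-24708221, plus strand): ggtcagcggcgtCCAATgggaggcgaggcc
*Top2a*, CHR letters (chr11:99024195-99024224, minus strand): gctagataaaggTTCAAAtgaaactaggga
A match is a description of letters in a window and says nothing on which factor was bound in these cells.

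Almost all S-phase cells were macrophages by their markers. Cells were classed by summed macrophage against summed stromal marker genes, and 676 of the 694 S-phase cells (97.4%) fell in the macrophage-marker class, 6 in the stromal-marker class and 12 in neither. Over all samples 676 of 14412 macrophage-marker cells were in S phase (4.69%, 95% Clopper-Pearson interval 4.35 to 5.05), compared with 6 of 944 stromal-marker cells (0.636%, interval 0.234 to 1.38). Intervals here cover counting error only. In the tagged cultures the share was 4.61% ± 1.27 (SD, n = 11) of macrophage-marker and 0.606% ± 0.878 (SD, n = 11) of stromal-marker cells, and it was higher in macrophage-marker cells in 11 of 11 cultures (exact sign-flip permutation test, two-sided p = 0.000977, the smallest that 2048 arrangements can give). With every cell thinned to 3000 UMIs the shares were 4.90% and 1.05%, with the same direction in 9 of 11 cultures (exact permutation p = 0.00391). The 6 stromal-marker cells came from WT replicates 2, 3 and 4, Fgf23cKO replicate 4 and Dmp1KO Fgf23cKO replicates 1 and 3, 1 cell each.

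The 14 macrophage markers are the genes that classed the cells, so their level describes the class. Their sum in S-phase cells lay between 24950 and 35831 CPM (UMIs of a gene scaled to the same total in every sample) in the 11 tagged cultures, and lysozyme *Lyz2* was the most abundant in macrophage-marker S-phase cells, with a mean of 16143 CPM. Markers of other blood cells were at 0 or low. The neutrophil genes *S100a9*, *Elane*, *Mpo* and *Ly6g*, the lymphocyte genes *Nkg7*, *Cd3e* and *Gzma* and the mast cell genes *Fcer1a*, *Cpa3* and *Ms4a2* were at 0 in the S-phase cells of all samples, and summed endothelial markers stayed between 1.86 and 11.2 CPM in the tagged cultures. Apart from *S100a8* below, levels of the other neutrophil, lymphocyte and mast cell genes are not given. Of the whole lists, 0 of 8 lymphocyte, 0 of 5 mast cell, 0 of 5 erythroid and 1 of 8 neutrophil genes were abundant enough to be tested between genotypes. The neutrophil gene *S100a8* was at 16.5 and 24.1 CPM in Dmp1KO and between 1.87 and 11.9 CPM in the other tagged cultures. The list of monocyte and dendritic cell markers, with *Ly6c2* at 0, summed to 146, 42.2 and 48.9 CPM in WT, 226, 21.5 and 14.95 in Fgf23cKO, 219.8 and 188 in Dmp1KO, and 17.96, 32.4 and 84.6 in Dmp1KO Fgf23cKO, and *Itgax* gave 162 and 134 CPM of it in Dmp1KO. Both were high in Dmp1KO, and Fgf23cKO replicate 1 was as high for the second. Their part in the other results was not tested. Stromal markers were not at 0. Their sum in S-phase cells was 129, 2568 and 1987 CPM in WT, 3922, 207 and 243 in Fgf23cKO, 78.1 and 77.8 in Dmp1KO, and 1795, 397 and 3133 in Dmp1KO Fgf23cKO, and collagen *Col1a1* was the most abundant of the 15 genes of that list. In WT and Dmp1KO Fgf23cKO the high values were in cultures that held a stromal-marker S-phase cell. Fgf23cKO replicate 1 held none, but 1 of its 22 S-phase cells was in neither class. WT replicate 2 and Dmp1KO Fgf23cKO replicate 2 also held 1 S-phase cell in neither class. The part of these cells in the sums was not tested.

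The share of cells in S phase was lowest in Dmp1KO Fgf23cKO. It was 5.20, 3.91 and 4.38% in the WT cultures (4.50% ± 0.654, SD, n = 3), 5.18, 5.93 and 4.37% in Fgf23cKO (5.16% ± 0.778, SD, n = 3), 5.67 and 3.97% in Dmp1KO (4.82% ± 1.20, SD, n = 2), and 2.96, 2.39 and 3.19% in Dmp1KO Fgf23cKO (2.85% ± 0.410, SD, n = 3). The 3 Dmp1KO Fgf23cKO cultures lay below every other culture, and the other genotypes overlapped. The shares differed between genotypes (exact permutation test over 92400 arrangements, two-sided p = 0.0361), and did so with each cell thinned to 3000 UMIs, at means of 4.68, 5.79, 5.35 and 2.93% (exact permutation p = 0.00753). The untagged cells of the same pools gave 3.96, 4.09, 5.69 and 2.50%.

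No pair of genotypes could pass the exact permutation test on its own, since its smallest p for 3 cultures against 3 or against 2 is 0.1. The share was lower in Dmp1KO Fgf23cKO by 1.65 percentage points than in WT and by 1.97 points than in Dmp1KO (exact permutation p = 0.1 for each, adjusted p = 0.2 over the 4 comparisons), without overlap. Fgf23cKO exceeded WT by 0.661 points (exact permutation p = 0.5) and Dmp1KO exceeded WT by 0.321 points (exact permutation p = 0.6), both within the spread between cultures. Some of these directions turned under other settings. With *Pclaf* and *Rrm2* alone (a sum of at least 5), Dmp1KO Fgf23cKO minus Dmp1KO turned to 0.436 points and Fgf23cKO and Dmp1KO fell below WT by 1.10 and 1.19 points, and with thinning to 6000 UMIs both were again below WT, by 0.462 and 0.584 points, while Dmp1KO Fgf23cKO stayed below WT. Without Dmp1KO Fgf23cKO replicate 2 the test over genotypes gave an exact permutation p of 0.120.

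**Figure D1:**
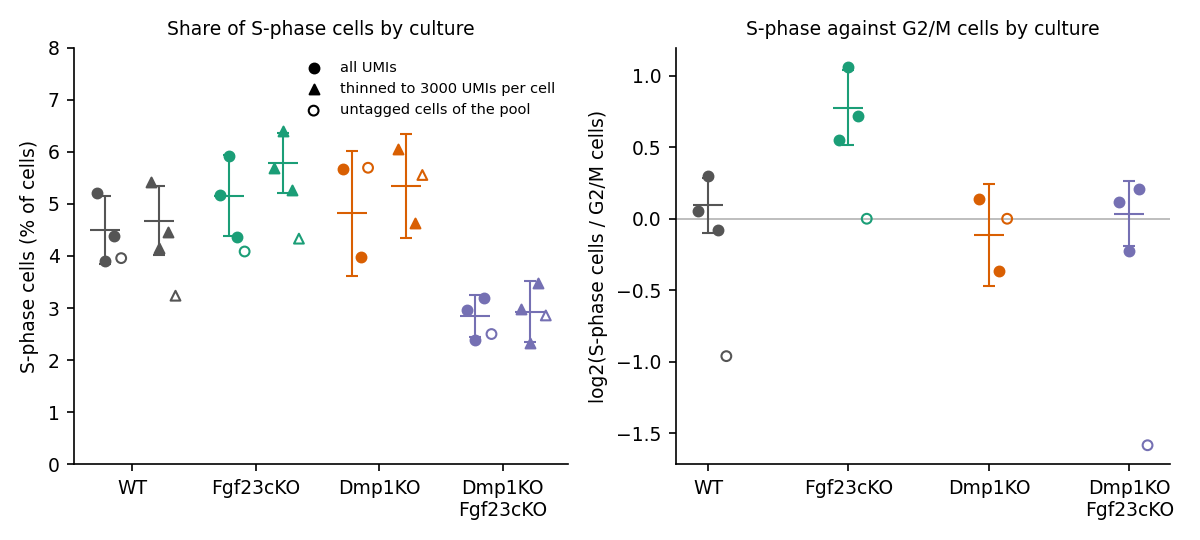
S-phase cells as a percentage of the cells in each culture (left) and the log2 ratio of S-phase to G2 and mitotic cells (right) for each sample of the 4 genotypes, with all UMIs (circles) or thinned to 3000 UMIs (triangles); open symbols are untagged cells and bars are the mean ± SD of the tagged cultures. The Dmp1KO Fgf23cKO cultures, between 2.39 and 3.19%, lie below all others on the left, and the Fgf23cKO cultures lie above WT on the right.

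The balance between S-phase and G2 or mitotic cells moved differently from the share. On the log2 scale the ratio of the 2 cell counts was 0.05, 0.30 and −0.08 in WT, 0.55, 1.06 and 0.72 in Fgf23cKO, 0.14 and −0.37 in Dmp1KO, and 0.12, −0.22 and 0.21 in Dmp1KO Fgf23cKO. All Fgf23cKO cultures lay above all others, which overlapped and scattered around equal numbers. The ratio differed between genotypes (exact permutation p = 0.0183), and Fgf23cKO exceeded WT by 0.68 (exact permutation p = 0.1, adjusted p = 0.4). Both counts rest on whether the S score exceeds the M score, and genes of the S score such as *Hist1h2ap* were higher in Fgf23cKO than in WT, so that a shift of cells and a shift of these RNAs cannot be told apart in this ratio, which was not computed with other genes. The untagged Fgf23cKO cells had a ratio of 0, and with untagged cells included as a further culture the p over genotypes was 0.163 (exact permutation test).

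S-phase cells held more RNA than comparison cells of the same tagged culture. Among macrophage-marker cells their median UMI count was 1.62 to 2.29 times as high (median 1.85) in the 11 tagged cultures, and the number of detected genes was 1.23 to 1.53 times as high (median 1.32). The untagged Dmp1KO cells went the other way, with 12077 UMIs in S-phase and 17276 in comparison cells (0.699 times), and untagged Dmp1KO Fgf23cKO cells had a ratio of 6.18. The mitochondrial share differed little, by −0.203 percentage points in the median culture. Depth enters the rule through the sampling of the 7 genes, so the difference in depth is not independent of how the cells were chosen.

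The next values set S-phase against comparison cells among macrophage-marker cells, as a description with no test, because the same cells and genes define the groups. Of 7034 genes with at least 20 CPM in either kind of cell, 25.2% were higher and 23.2% lower in S-phase cells in all 11 tagged cultures, and the median log2 ratio of all genes was −0.04. *Hist1h1b* (ENSMUSG00000058773), the linker histone that leads the rule, stood at 1281 ± 394 CPM (SD, n = 11) in S-phase and 11.99 CPM in comparison cells, a median log2 ratio of 6.94 (6.11 to 7.68).

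Outside the rule, every measured gene of 6 lists was higher in S-phase cells in all 11 cultures. These were 17 of 17 origin licensing and helicase genes (median log2 ratio 2.46), 22 of 22 replication fork genes (2.21), 9 of 9 genes of deoxynucleotide supply (3.37), 20 of 20 genes of chromatin copying (2.41), 21 of 21 genes of the replication checkpoint and repair (3.14), and 33 of 33 other G2 and mitosis genes (5.11). The lists were chosen with earlier results of these data known. Comparison cells had to have low S and M scores, so genes that follow these scores are lower there by the choice of cells. Other cell cycle lists were not unanimous, with 16 of 19 cyclins and CDKs, 8 of 11 E2F genes and 4 of 7 CDK inhibitor and RB family genes higher in all cultures. The helicase subunit *Mcm5* rose from 12.6 CPM in comparison to 125 ± 33.2 CPM (SD, n = 11) in S-phase cells, and the primase partner *Pola1* from 43.5 to 258 ± 69.5 CPM (SD, n = 11). The fork clamp *Pcna* went from 149.8 to 607 ± 57.5 CPM (SD, n = 11). *Ccne2*, the cyclin E2 that drives entry into S phase, stood at 94.4 CPM in S-phase, 5.31 CPM in comparison and 1.24 CPM in G2 and mitotic cells.

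Most histone genes were higher in S-phase cells, but not all. Of 43 measured histone genes outside the rule, 37 were higher and 3 lower in S-phase cells in all cultures (median log2 ratio 3.43). *Hist1h3b*, an H3 gene, had the largest ratio of all genes outside the rule, 88.3 CPM compared with 0.291 CPM (median log2 ratio 8.10), and fell to 6.06 CPM in G2 and mitotic cells. *H3f3a*, a replacement histone made all through the cycle, differed far less, at 978 CPM compared with 711 CPM (0.45). Other replacement histones are not described here apart from *H2afj*. The 3 lower histone genes were *Hist1h2bc* (85.2 compared with 228 CPM), *Hist3h2a* (13.8 compared with 35.1 CPM) and *H2afj* (311 compared with 415 CPM). Because the kit primes on poly(A), most replication-dependent histone mRNA is counted with low efficiency, and near-identical copies can share reads, so the level of a single histone gene is uncertain.

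Among the other genes with the largest ratios, some peaked in S phase and some later. *Esco2*, the acetyltransferase that ties sister chromatids as they are made, stood at 0.637 CPM in comparison, 108 CPM in S-phase and 14.7 CPM in G2 and mitotic cells. *Neil3*, a repair glycosylase, and the histone genes likewise were lower in G2 and mitotic than in S-phase cells. *Top2a* (ENSMUSG00000020914), the topoisomerase that untangles replicated DNA, stood at 905 ± 231 CPM (SD, n = 11) in S-phase, 616 CPM in G2 and mitotic and 11.6 CPM in comparison cells. The mitotic kinesin *Kif2c* and *Pimreg* were higher in G2 and mitotic than in S-phase cells.

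Genes of mature macrophages made up less of the RNA of S-phase cells. CPM are relative to the UMIs of a cell, and S-phase cells held more UMIs, so a lower CPM here need not be a lower number of UMIs per cell. Of 14 macrophage markers, 12 were lower in all 11 cultures and 0 were higher (median log2 ratio −0.54), with *Lyz2* at 16143 compared with 23732 CPM and the mannose receptor *Mrc1* at 684 compared with 1152 CPM. Of 19 measured genes of macrophage growth signalling 10 were lower and 0 higher (−0.62), among them the transcription factor *Maf*, which restrains macrophage self-renewal, at 728 compared with 1117 CPM. The CSF1 receptor *Csf1r* differed little (692 compared with 822 CPM, higher in 1 of 11 cultures). Of 13 dissociation stress genes 7 were lower and 1 higher (−0.61), and of 8 p53 target genes 4 were lower and 1 higher (−0.52).

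Some of the genes with the lowest ratios are given as examples, and what they share was not tested. The matrix protease *Mmp12* stood at 299.5 compared with 886 CPM (median log2 ratio −2.26), the lectin receptor *Clec4n* at 169.8 compared with 723 CPM (−2.15), and *Slfn5*, an interferon-induced gene, at 7.50 compared with 78.8 CPM (−3.49). *Dach1* had the lowest median ratio (−5.89), but outside Dmp1KO, where it was abundant in both kinds of cell, it was low in comparison cells and at 0 in many of the S-phase samples.

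**Figure D2:**
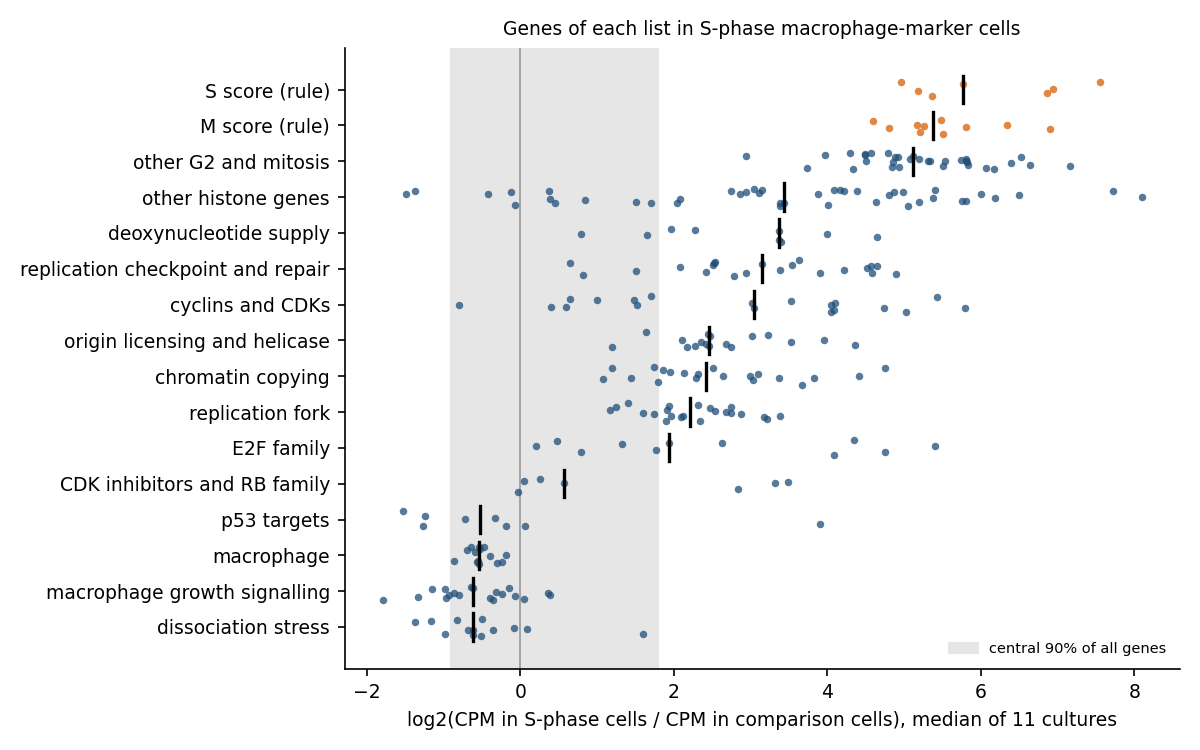
Log2 ratio of S-phase to comparison cells (median of 11 tagged cultures, macrophage-marker cells) for every measured gene of each list, with the list median as a black tick, genes of the rule in orange and the central 90% of all genes as a grey band. All measured genes of the replication and mitosis lists lie right of 0, and the macrophage and growth signalling lists lie mostly left of it.

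Genotypes were then compared within S-phase cells. UMIs were summed over the S-phase cells of each tagged culture and 10198 genes were tested in edgeR with a threshold of adjusted p of 0.1. The levels below are CPM after TMM scaling. Compared with WT, 823 genes were higher (8.07% of those tested) and 739 lower (7.25%) in Fgf23cKO, 2101 higher (20.6%) and 2124 lower (20.8%) in Dmp1KO, and 1348 higher (13.2%) and 1190 lower (11.7%) in Dmp1KO Fgf23cKO. Dmp1KO Fgf23cKO compared with Dmp1KO had 1849 genes higher (18.1%) and 1750 lower (17.2%). These percentages are the background for every list below. Cultures of the 2 genotypes did not overlap for 2852, 6003, 3362 and 5405 of the 10198 genes, in the same order. With 1 culture left out, as few as 513 genes were higher and 475 lower in Fgf23cKO, and 1053 lower in Dmp1KO. As few as 884 were then higher in Dmp1KO Fgf23cKO compared with WT and 787 compared with Dmp1KO. The 3 comparisons with WT share the WT cultures, and WT cells were the shallowest, so depth and genotype cannot be told apart in them. In bulk sums fewer cells with a transcript and less of it per cell cannot be told apart either.

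The deleted genes were examined first. *Dmp1*, which osteocytes make, had 1, 40 and 5 UMIs in the S-phase cells of the WT cultures (0 untagged), 18, 3 and 4 in Fgf23cKO (3), and 0 in every Dmp1KO and Dmp1KO Fgf23cKO sample. The WT level was at least 61.9-fold higher than in Dmp1KO and at least 20.7-fold higher than in Dmp1KO Fgf23cKO, against a floor of 3 counts over the group. Most WT UMIs came from 2 cells of replicate 2. *Fgf23* had 0 UMIs in the S-phase cells of every sample and at most 8 in all cells of any sample, so its deletion could not be checked at this depth. In all cells the Dmp1KO samples had 0, 3 and 2 *Dmp1* UMIs and the Dmp1KO Fgf23cKO samples 76, 47, 26 and 25, compared with 440 to 1758 in WT.

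The genes of the rule are given as levels only, since their sum chose the cells. *Hist1h2ap* (ENSMUSG00000094777), an H2A gene, stood at 2032, 1708 and 1855 CPM in WT, 3761, 3076 and 3702 in Fgf23cKO, 3504 and 4174 in Dmp1KO, and 3429, 2908 and 2305 in Dmp1KO Fgf23cKO. WT was below every other culture. *Pclaf*, a PCNA-binding protein, ran the other way, with 706, 673 and 648 CPM in WT, 375, 318 and 424 in Fgf23cKO, 321 and 340.3 in Dmp1KO, and 433, 406 and 435 in Dmp1KO Fgf23cKO. The ribonucleotide reductase subunit *Rrm2* lay between 129.8 and 196 CPM in all 11 cultures. The genes that place a cell in the set therefore had unequal weights in WT and in the mutants.

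H2B histone genes were lower in both genotypes that lack *Dmp1*. Of 14 H2B genes tested 12 fell in Dmp1KO (median log2 fold change −1.17) and 11 in Dmp1KO Fgf23cKO (−1.10), 0 rose in either, and in Fgf23cKO 2 rose and 1 fell (−0.06). Their summed level in S-phase cells was 744, 655 and 817 CPM in WT (771 untagged), 838, 692 and 929 in Fgf23cKO (664), 337 and 391 in Dmp1KO (313), and 489, 398 and 347 in Dmp1KO Fgf23cKO (519). Cultures without *Dmp1* did not overlap with the others.

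Single H2B genes showed the same levels. *Hist1h2br* (ENSMUSG00000069303) stood at 66.9, 60.0 and 58.5 CPM in WT, 57.1, 43.3 and 57.4 in Fgf23cKO, 20.5 and 29.9 in Dmp1KO, and 26.5, 20.5 and 19.8 in Dmp1KO Fgf23cKO, with the groups that have *Dmp1* above those that lack it. Its log2 fold change from WT was −1.31 ± 0.20 (SE, adjusted p = 0.000189, edgeR) in Dmp1KO and −1.43 ± 0.21 (SE, adjusted p = 0.000358, edgeR) in Dmp1KO Fgf23cKO. *Hist2h2bb* (ENSMUSG00000105827), 1 of the genes with an octamer shown above, stood at 57.5, 58.1 and 82.1 CPM in WT, 68.9, 45.3 and 75.2 in Fgf23cKO, 29.4 and 32.7 in Dmp1KO, and 35.3, 27.3 and 25.1 in Dmp1KO Fgf23cKO. It fell by 1.11 and 1.15 on the log2 scale compared with WT in the 2 genotypes (adjusted p = 0.00151 and 0.00344, edgeR), again without overlap.

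The other octamer genes moved by unequal amounts. *Hist1h2bk* fell by 1.93 in Dmp1KO and 1.69 in Dmp1KO Fgf23cKO on the log2 scale (adjusted p = 0.000895 and 0.00606, edgeR), *Hist1h2bg* by 0.89 and 1.06 (adjusted p = 0.00958 and 0.0100, edgeR), *Hist1h2bb* by 0.70 and 1.19 (adjusted p = 0.0804 and 0.0186, edgeR), and *Hist1h2bm* by 0.62 and 0.64 (adjusted p = 0.0476 and 0.0756, edgeR). The Dmp1KO calls of *Hist1h2bg*, *Hist1h2bb* and *Hist1h2bm* were lost without Dmp1KO replicate 2, and both calls of *Hist1h2bm* were lost in DESeq2. *Hist1h2bf* and *Hist1h2br*, which also fell, had no octamer in their windows. *Hist1h2bc*, the H2B gene that was lower in S-phase than in comparison cells, did not pass the test in either genotype (0.20 and −0.23). In Dmp1KO Fgf23cKO compared with Dmp1KO, 1 of 14 H2B genes fell and 0 rose.

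H4 genes were lower by nearly as much. Of 12 H4 genes 8 fell and 1 rose in Dmp1KO (median −0.95), 6 fell and 1 rose in Dmp1KO Fgf23cKO (−0.95), and 2 fell and 2 rose in Fgf23cKO (0.17). Of 9 H3 genes outside the rule 4 fell and 0 rose in Dmp1KO (−0.72), 1 fell and 0 rose in Dmp1KO Fgf23cKO (−0.21), and 1 fell and 3 rose in Fgf23cKO (0.19). Whether the types differed from each other was not tested. *Hist1h4d*, the H4 gene that rose in Dmp1KO and Dmp1KO Fgf23cKO, stood at 243, 194 and 201 CPM in WT, 677, 559 and 734 in Fgf23cKO, 318 and 374 in Dmp1KO, and 477, 395 and 339 in Dmp1KO Fgf23cKO, above WT in every mutant culture (log2 fold changes 1.63, 0.71 and 0.93). The H3 gene *Hist1h3i* ran the other way with 177, 126 and 170.3 CPM in WT, 63.6, 51.2 and 103 in Fgf23cKO, 35.1 and 40.3 in Dmp1KO, and 47.2, 40.0 and 32.3 in Dmp1KO Fgf23cKO, all mutants below WT.

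H1 genes did not fall as a group. Outside the rule, 3 of 4 rose and 1 fell in Fgf23cKO (median 0.57), 1 rose and 1 fell in Dmp1KO (0.14), and 2 rose and 1 fell in Dmp1KO Fgf23cKO (0.39). Of 12 H2A genes outside the rule, 3 rose and 1 fell in Fgf23cKO, 0 rose and 6 fell in Dmp1KO, and 0 rose and 4 fell in Dmp1KO Fgf23cKO. Replacement variants, which are polyadenylated, summed to between 5032 and 5961 CPM in all 11 cultures and overlapped between genotypes. Over all 60 tested histone genes outside the rule, 4 rose and 31 fell in Dmp1KO (median −0.71), 5 rose and 25 fell in Dmp1KO Fgf23cKO (−0.65), and 13 rose and 7 fell in Fgf23cKO (−0.01), against medians of −0.05, 0.04 and 0.01 over all genes tested. Leaving out Dmp1KO replicate 2 lowered the count that fell in Dmp1KO from 31 to 15. Of the H2B genes called, 7 of 12 in Dmp1KO and 9 of 11 in Dmp1KO Fgf23cKO remained whichever culture was left out. The same held for 3 of 9 called H4 genes in Dmp1KO and 6 of 7 in Dmp1KO Fgf23cKO. In Dmp1KO it held for 2 of 5 called H3 and 4 of 8 called H2A genes. Those H3 and H2A counts include *Hist1h3c*, *Hist1h2ae* and *Hist1h2ap*, genes of the rule that chose the cells. Outside the rule 4 H3 and 6 H2A genes were called. No conclusion is drawn from the H3 and H2A counts. Of the H2B genes, all 12 and 11 remained with macrophage-marker S-phase cells only.

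**Figure D3:**
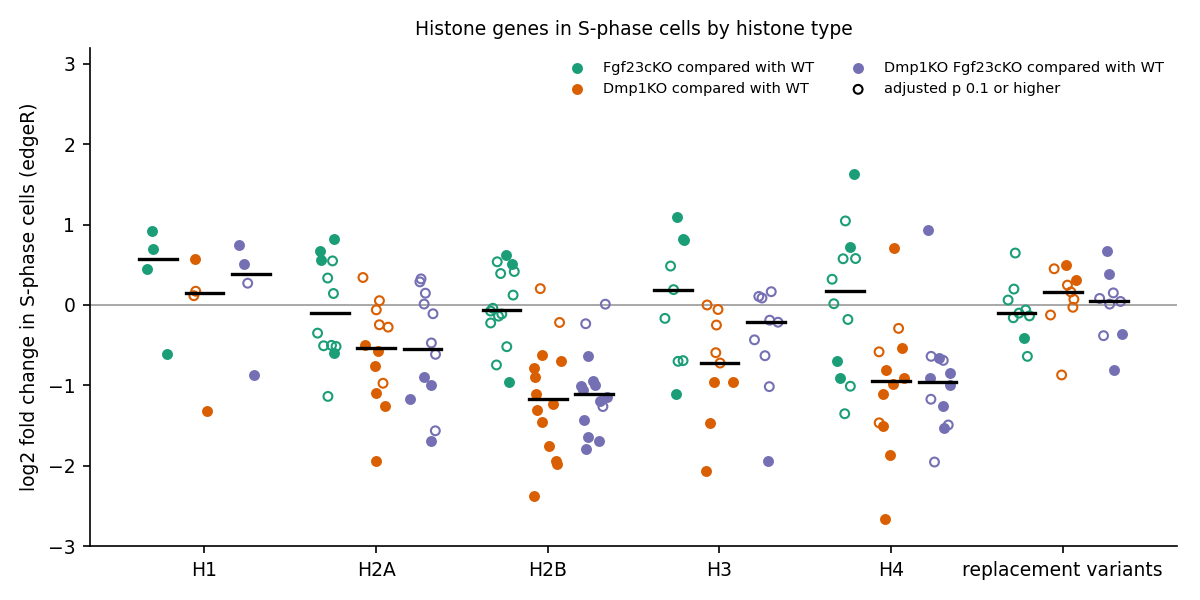
Log2 fold change from WT in S-phase cells for each tested histone gene outside the S score, by histone type, in Fgf23cKO, Dmp1KO and Dmp1KO Fgf23cKO (filled symbols pass adjusted p of 0.1 in edgeR, black lines are medians). Most H2B genes lie below 0 in the genotypes that lack *Dmp1* (medians −1.17 and −1.10) and around 0 in Fgf23cKO (−0.06).

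Genes of origin licensing and of the fork did not fall with the histones. In Dmp1KO Fgf23cKO 6 of 20 licensing and helicase genes rose and 1 fell compared with WT (median 0.32), and 10 of 22 fork genes rose and 1 fell (0.33). In Dmp1KO 5 licensing genes rose and 3 fell (−0.01), and 6 fork genes rose and 4 fell (0.01). With 1 culture left out, 2 to 5 licensing genes rose and 2 to 3 fell there, and 4 to 6 fork genes rose and 0 to 5 fell. In Fgf23cKO 0 licensing genes rose and 2 fell (0.05), and 2 fork genes rose and 2 fell (−0.03).

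*Mcm5* stood at 96.3, 97.2 and 85.6 CPM in WT, 109, 108 and 139 in Fgf23cKO, where the difference did not pass the test, 117 and 129.9 in Dmp1KO, and 169, 172 and 142 in Dmp1KO Fgf23cKO. All mutant cultures lay above WT, and those of Dmp1KO Fgf23cKO above all others (log2 fold change from WT 0.80 ± 0.13, SE, adjusted p = 0.00108, edgeR). *Mcm7*, another subunit of the same helicase, fell in Dmp1KO by 0.84 ± 0.13 (SE, adjusted p = 0.000219, edgeR) and in Fgf23cKO by 0.50 ± 0.12 (SE, adjusted p = 0.0178, edgeR). *Dbf4*, the activator of the kinase that fires origins, fell in all 3 mutants, by 0.72, 0.86 and 0.57 on the log2 scale.

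*Pola1* (ENSMUSG00000006678), the catalytic subunit of the polymerase that starts new strands, stood at 257, 253 and 238 CPM in WT, 259, 214 and 213 in Fgf23cKO, 189 and 188 in Dmp1KO, and 305, 378 and 282 in Dmp1KO Fgf23cKO. Dmp1KO lay below and Dmp1KO Fgf23cKO above all other cultures, and these 2 differed by 0.77 ± 0.13 (SE, adjusted p = 0.000731, edgeR). *Pold2*, a subunit of the lagging-strand polymerase, rose in all 3 mutants (0.83, 1.07 and 1.07), while the ligase *Lig1* fell in Fgf23cKO and Dmp1KO (−0.39 and −0.50). The Fgf23cKO calls of both were lost without Fgf23cKO replicate 1, and that of *Lig1* in Dmp1KO without Dmp1KO replicate 2.

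Genes of the replication checkpoint and repair rose in Dmp1KO Fgf23cKO, 11 of 26 with 0 lower compared with WT (median 0.29) and 9 with 0 lower compared with Dmp1KO (0.37). *Clspn* (ENSMUSG00000042489), the adaptor that relays a stalled fork to the checkpoint kinase, stood at 122, 116 and 100.4 CPM in WT, 152, 132 and 141 in Fgf23cKO, 141 and 168 in Dmp1KO, and 211, 197 and 193 in Dmp1KO Fgf23cKO. The WT cultures were lowest and the Dmp1KO Fgf23cKO cultures highest, with no overlap with any other group (0.84 ± 0.12 from WT, SE, adjusted p = 0.000267, edgeR). *Brca1*, which protects and repairs forks, exceeded WT by 0.65 and Dmp1KO by 0.70 in Dmp1KO Fgf23cKO (adjusted p = 0.00339 and 0.00104, edgeR). In Dmp1KO 3 genes of the list rose and 4 fell, and in Fgf23cKO 4 rose and 1 fell. Leaving out Dmp1KO replicate 2 removed many calls of the comparison with Dmp1KO, down to 2 genes of this list in the lowest of the fits with 1 culture left out.

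Among genes that supply deoxynucleotides, 10 were tested, and 0 rose and 3 fell in Fgf23cKO, 2 rose and 3 fell in Dmp1KO, and 3 rose and 2 fell in Dmp1KO Fgf23cKO. The salvage kinase *Dck* fell in all 3 (−0.61, −0.89 and −0.54), and thymidylate synthase *Tyms* rose in Dmp1KO Fgf23cKO by 0.54 ± 0.13 (SE, adjusted p = 0.0103, edgeR). Of 20 genes of chromatin copying, 5 fell and 2 rose in Fgf23cKO, 8 fell and 1 rose in Dmp1KO, 4 fell and 4 rose in Dmp1KO Fgf23cKO compared with WT, and 10 rose and 1 fell in Dmp1KO Fgf23cKO compared with Dmp1KO. With 1 culture left out, 2 to 7 rose in the last comparison and 4 to 9 fell in Dmp1KO compared with WT. The nucleosome assembly factor subunit *Chaf1b* rose in all 3 mutants, with 28.1, 26.7 and 24.5 CPM in WT, 56.4, 32.1 and 36.4 in Fgf23cKO, 58.4 and 62.1 in Dmp1KO, and 52.4, 57.5 and 67.3 in Dmp1KO Fgf23cKO, all above WT. In Fgf23cKO that call (0.66, adjusted p = 0.0776, edgeR) was lost with most single cultures left out.

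Some genes of G2 and mitosis were lower in the S-phase cells of each mutant, and fewer were higher. Of 33 other G2 and mitosis genes 19 fell and 1 rose in Dmp1KO (median −0.35), 10 fell and 3 rose in Dmp1KO Fgf23cKO (−0.16), and 8 fell and 1 rose in Fgf23cKO (−0.19). With 1 culture left out, 11 to 17, 7 to 12 and 4 to 8 fell, in the same order. *Nusap1* (ENSMUSG00000027306), a spindle protein, stood at 526, 461 and 458 CPM in WT, 248, 274 and 215 in Fgf23cKO, 180.2 and 178 in Dmp1KO, and 250.1, 215 and 213 in Dmp1KO Fgf23cKO. Its WT values were far above the rest, and Dmp1KO lay below all others (log2 fold changes −0.97 ± 0.11, −1.42 ± 0.13 and −1.08 ± 0.11, SE, adjusted p = 0.000118, 2.24e-06 and 2.1e-05, edgeR).

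*Top2a* stood at 1229, 1144 and 1186 CPM in WT, 813, 864 and 820.3 in Fgf23cKO, 680.0 and 692 in Dmp1KO, and 885, 796 and 695 in Dmp1KO Fgf23cKO, and *Hmgb2*, a chromatin protein of dividing cells, at 1771, 1509 and 1756 CPM in WT and between 782 and 999 CPM in every mutant culture. Both were lower in all mutants without overlap with WT, and *Top2a* fell by 0.51, 0.79 and 0.58 on the log2 scale (adjusted p = 0.00238, 4.82e-05 and 0.000579, edgeR). The proliferation marker *Mki67* was an exception, at 526, 511 and 582 CPM in WT, 703, 773 and 793 in Fgf23cKO, 622 and 591 in Dmp1KO, and 854, 702 and 706 in Dmp1KO Fgf23cKO, above WT in every mutant culture. Its rise passed the test in Fgf23cKO (0.49, adjusted p = 0.00627, edgeR) and Dmp1KO Fgf23cKO (0.48, adjusted p = 0.00407, edgeR), not in Dmp1KO (0.17).

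Of 19 cyclins and CDKs, 9 fell and 3 rose in Dmp1KO (median −0.39), 7 fell and 4 rose in Dmp1KO Fgf23cKO, and 4 fell and 3 rose in Fgf23cKO. *Ccne2* (ENSMUSG00000028212) stood at 138, 162 and 117 CPM in WT, 99.7, 54.4 and 92.5 in Fgf23cKO, 46.9 and 52.5 in Dmp1KO, and 72.1, 100.5 and 93.4 in Dmp1KO Fgf23cKO. WT lay above and Dmp1KO below all other cultures (Dmp1KO −1.49 ± 0.22, SE, adjusted p = 0.000149, edgeR). Its calls in the other 2 mutants (−0.75 and −0.67) were lost without WT replicate 2. *Cdk4*, the kinase of G1, exceeded WT by 0.86 in Dmp1KO and 0.74 in Dmp1KO Fgf23cKO (adjusted p = 0.000132 and 0.000947, edgeR).

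Of 9 tested CDK inhibitor and RB family genes, 6 fell and 1 rose in Dmp1KO, 2 fell in Dmp1KO Fgf23cKO and 0 passed in Fgf23cKO. With 1 culture left out, 1 to 5 fell in Dmp1KO and 0 to 1 in Dmp1KO Fgf23cKO. The inhibitor *Cdkn1a* fell by 0.52 ± 0.14 in Dmp1KO (SE, adjusted p = 0.0087, edgeR), a call lost without Dmp1KO replicate 2. Of 12 E2F genes, 4 rose and 1 fell in Dmp1KO Fgf23cKO, 1 rose and 4 fell in Dmp1KO, and 0 passed in Fgf23cKO. These counts became 2 to 4 higher in Dmp1KO Fgf23cKO and 0 to 3 lower in Dmp1KO with 1 culture left out. Over other settings 0 to 4 were lower in Dmp1KO. Among 12 p53 targets the death effector *Bax* rose in all 3 mutants (0.62, 0.82 and 0.42), and the list had 2 genes higher and 1 lower in Fgf23cKO, 3 and 3 in Dmp1KO, and 3 and 1 in Dmp1KO Fgf23cKO.

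**Figure D4:**
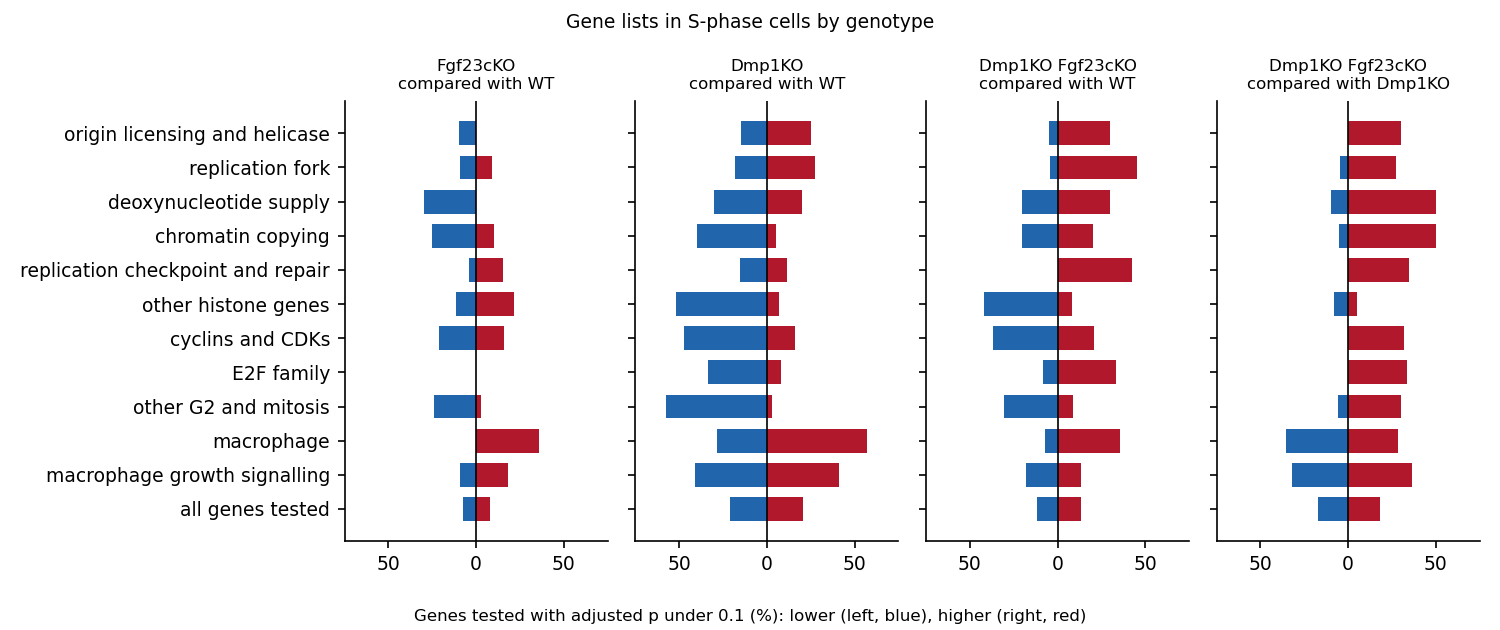
Percent of the tested genes of each list that were lower (blue, left) or higher (red, right) at adjusted p of 0.1 (edgeR) in S-phase cells, for the 4 genotype comparisons, with all genes tested at the bottom. Histone and mitosis genes extend to the left in Dmp1KO compared with WT, and fork and repair genes to the right in Dmp1KO Fgf23cKO.

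Identity genes of the macrophages differed between genotypes. Of 14 macrophage markers 8 rose and 4 fell in Dmp1KO, 5 rose and 1 fell in Dmp1KO Fgf23cKO, and 5 rose and 0 fell in Fgf23cKO. *Mrc1* stood at 729, 867 and 741 CPM in WT, 460.0, 724 and 695 in Fgf23cKO, 179 and 184 in Dmp1KO, and 709, 1282 and 638 in Dmp1KO Fgf23cKO, low in Dmp1KO alone among the groups (−2.10 ± 0.26 from WT, SE, adjusted p = 4.55e-05, edgeR). The complement gene *C1qb* ran the other way, with 1268, 1444 and 1301 CPM in WT, 1675, 1765 and 1769 in Fgf23cKO, 3031 and 3112 in Dmp1KO, and 2056, 2754 and 2123 in Dmp1KO Fgf23cKO. No group overlapped with another for *C1qb*.

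Among 22 genes of macrophage growth signalling, 9 rose and 9 fell in Dmp1KO, 3 rose and 4 fell in Dmp1KO Fgf23cKO, and 4 rose and 2 fell in Fgf23cKO. *Csf1r* (ENSMUSG00000024621) stood at 645, 691 and 698 CPM in WT, 702, 698 and 794 in Fgf23cKO, 387 and 374 in Dmp1KO, and 765, 817 and 759.6 in Dmp1KO Fgf23cKO, lowest in Dmp1KO (−0.83 ± 0.09 from WT, SE, adjusted p = 1.82e-05, edgeR). *Maf* (ENSMUSG00000055435) stood at 1364, 1419 and 1152 CPM in WT, 523, 529 and 641 in Fgf23cKO, 198 and 199 in Dmp1KO, and 596, 609 and 529.8 in Dmp1KO Fgf23cKO. WT was highest and Dmp1KO lowest, and the other 2 overlapped between them (Dmp1KO −2.72 ± 0.13, SE, adjusted p = 8.01e-09, edgeR). *Dusp6*, a phosphatase induced by ERK signalling, fell in all 3 mutants (−0.60, −1.78 and −0.88).

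*Spp1* (ENSMUSG00000029304), osteopontin, stood at 803, 608 and 598 CPM in WT, 1024, 1317 and 1904 in Fgf23cKO, 20817 and 18017 in Dmp1KO, and 1249, 1337 and 1241 in Dmp1KO Fgf23cKO. Both Dmp1KO cultures were far above the highest of the others, 1904 CPM (log2 fold change from WT 4.86 ± 0.20, SE, adjusted p = 1.86e-09, edgeR). In the osteoblast and osteocyte list, to which *Spp1* belongs, it was the gene that rose in each mutant compared with WT. Of the 9 tested genes 6 fell in Dmp1KO (median −4.76), 4 in Dmp1KO Fgf23cKO (−0.15) and 2 in Fgf23cKO (−1.47), the deleted gene *Dmp1* being among them in the genotypes that lack it. Osteocalcin *Bglap* stood at 13.4, 787 and 66.4 CPM in WT, 117, 20.3 and 14.2 in Fgf23cKO, 3.53 and 4.16 in Dmp1KO, and 22.8, 23.4 and 33.2 in Dmp1KO Fgf23cKO. It was lowest in Dmp1KO and spread widely between the WT cultures. The 4 stromal-marker S-phase cells of the tagged cultures were in WT replicates 2 and 3 and Dmp1KO Fgf23cKO replicates 1 and 3. With macrophage-marker S-phase cells only, 5 genes of the list were tested, of which 2 rose and 3 fell in Dmp1KO, 4 rose and 0 fell in Dmp1KO Fgf23cKO, and 2 rose and 0 fell in Fgf23cKO. *Bglap* then fell by 1.66 on the log2 scale in Dmp1KO (adjusted p = 0.000868, edgeR) and rose by 0.98 in Dmp1KO Fgf23cKO (adjusted p = 0.0198, edgeR), against −6.26 and −3.50 with all S-phase cells (adjusted p = 0.00286 and 0.0330, edgeR). How much RNA of other cells was captured in these droplets was not measured, so these values do not show that macrophages express *Bglap*. The integrin *Itgax* (5.62 ± 0.44, SE, adjusted p = 8.7e-07, edgeR) and lipoprotein lipase *Lpl* (2.82 ± 0.22, SE, adjusted p = 8.83e-07, edgeR) were likewise higher in Dmp1KO. The osteoclast protease *Mmp9* stood at 103, 50.5 and 64.6 CPM in WT and at most 4.67 CPM in every mutant culture.

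**Figure D5:**
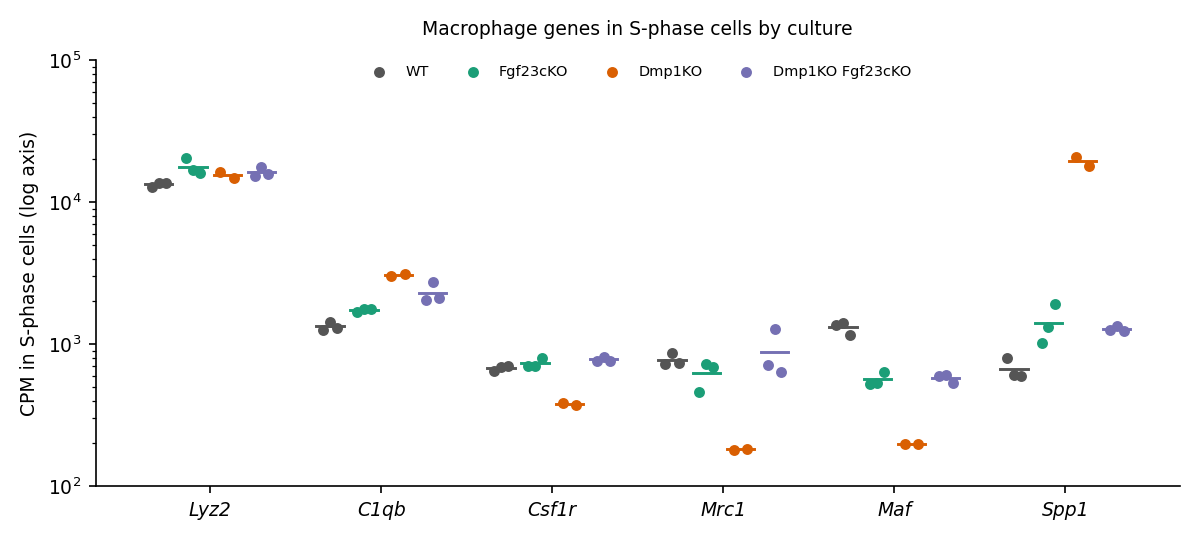
CPM (log axis) of *Lyz2*, *C1qb*, *Csf1r*, *Mrc1*, *Maf* and *Spp1* in the S-phase cells of each tagged culture of the 4 genotypes, with the mean as a line. *Csf1r*, *Mrc1* and *Maf* are lowest and *C1qb* and *Spp1* highest in Dmp1KO.

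The genes with the largest changes between genotypes, whose cultures did not overlap, were mostly outside the lists. In Dmp1KO compared with WT, *Pianp*, *Trpc4* and *Chst10* were at 0 in all WT S-phase cells and at least 26.9-fold, 24.9-fold and 23.8-fold higher in Dmp1KO. *Dach1*, a transcriptional repressor, stood at 155 and 183 CPM in Dmp1KO and 0 in all Dmp1KO Fgf23cKO cultures, at least 187-fold lower there. *Mfge8*, a bridging protein for the uptake of dying cells, stood at 1405 and 1063 CPM in Dmp1KO and between 5.35 and 21.6 CPM in every other culture. *Npy*, the neuropeptide, stood at 1.34, 5.71 and 6.99 CPM in WT, 52.5, 41.3 and 48.1 in Fgf23cKO, 380.3 and 411 in Dmp1KO, and 7.26, 38.0 and 8.08 in Dmp1KO Fgf23cKO.

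In Fgf23cKO, *Kazn*, a junction protein, stood at 4.59, 5.90 and 21.6 CPM compared with 185, 91.4 and 161 in WT (−3.72 ± 0.39, SE, adjusted p = 5.4e-05, edgeR), without overlap, and the non-coding gene *Gm19951* at 39.4, 28.9 and 17.3 CPM compared with 2.68, 1.91 and 1.75 (3.76 ± 0.54, SE, adjusted p = 0.000581, edgeR). Of the 10 genes named as higher and 10 as lower in each comparison with WT, 8 and 8 could be tested in macrophage-marker S-phase cells only for Fgf23cKO, 9 and 7 for Dmp1KO, and 3 and 8 for Dmp1KO Fgf23cKO, and all that were tested remained called. With each culture left out in turn, 2 and 9 of the 10 remained called throughout for Fgf23cKO, 10 and 8 for Dmp1KO, and 6 and 8 for Dmp1KO Fgf23cKO.

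In Dmp1KO Fgf23cKO compared with Dmp1KO the 10 higher genes were led by *Sorbs2*, *Cpa6* and *Sema5a*, and 0 of them were abundant enough to be tested in macrophage-marker S-phase cells only. *Ebf1*, a stromal transcription factor among them, stood at 119 and 110.5 CPM in Dmp1KO Fgf23cKO replicates 1 and 3, which each held a stromal-marker S-phase cell, and at 0.975 CPM in replicate 2, which held none. All 15 stromal markers tested were likewise higher in that comparison. In macrophage-marker S-phase cells only, 7 of 11 tested were higher, and with the untagged cells included 0 of 15 were, at a median log2 fold change of 0.82. Of the 10 lower genes, 8 could be tested in macrophage-marker cells and remained called.

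Osteoclast genes were lower in the S-phase cells of the genotypes that lack *Dmp1*. Of 6 tested, 4 fell and 1 rose in Dmp1KO, 5 fell and 0 rose in Dmp1KO Fgf23cKO, and 1 fell and 0 rose in Fgf23cKO compared with WT. The bone protease *Ctsk* was the most abundant of the 10 osteoclast markers in the WT cultures, and the calcitonin receptor *Calcr* was at 0 in all samples. The summed level of the 10 markers was 1514, 951 and 1231 CPM in WT, 1071, 273 and 346 in Fgf23cKO, 521 and 468 in Dmp1KO, and 211, 86.1 and 164 in Dmp1KO Fgf23cKO. Fgf23cKO overlapped with WT and with Dmp1KO, while the untagged cells went against the tagged cultures, with 133 CPM in WT and 1611 CPM in Dmp1KO Fgf23cKO. Of 13 dissociation stress genes 6 fell and 2 rose in Dmp1KO, 4 rose and 0 fell in Dmp1KO Fgf23cKO, and 2 rose and 0 fell in Fgf23cKO. The part of these cells and of stress in the other results was not tested.

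Whether a genotype changed a gene more in S-phase than in comparison cells was tested in macrophage-marker cells with the culture as a block (13127 genes, edgeR). Because both groups of cells were chosen by their S and M scores, genes of those scores are not named for this test. They were tested, and the counts over all genes include them. In Fgf23cKO compared with WT the difference passed for 3 genes higher (0.0229%) and 2 lower (0.0152%), with 753 at an unadjusted p under 0.05. It passed for 176 higher (1.34%) and 125 lower (0.952%) in Dmp1KO, 52 higher (0.396%) and 14 lower (0.107%) in Dmp1KO Fgf23cKO, and 342 higher (2.61%) and 164 lower (1.25%) in Dmp1KO Fgf23cKO compared with Dmp1KO.

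With single cultures left out, the genes higher numbered as few as 0 in Fgf23cKO (without WT replicate 3), 60 in Dmp1KO, 5 in Dmp1KO Fgf23cKO and 70 in Dmp1KO Fgf23cKO compared with Dmp1KO, so these counts are less settled than those in S-phase cells. A gene that missed this test was not shown to change alike in both kinds of cell. Among the lists, 8 of 65 histone genes and 4 of 33 other G2 and mitosis genes were lower, and 6 of 14 macrophage markers higher, in the S-phase cells of Dmp1KO than their change in comparison cells. In Dmp1KO Fgf23cKO compared with Dmp1KO, 11 of 22 fork genes, 9 of 20 chromatin copying genes, 18 of 33 other G2 and mitosis genes, 8 of 65 histone genes and 5 of 20 licensing genes were higher in the S-phase cells relative to comparison cells, and 0 genes of these lists were lower. Comparison cells had to have low S and M scores, so replication, histone and mitosis genes that follow these scores are lower there. The counts of these lists therefore depend in part on how the cells were chosen, and no conclusion is drawn from them. The same applies to *Hmgb2*, and to *Ezh2* and *Kif4* below. *Hmgb2* in Fgf23cKO stood at 917 CPM compared with 1730 CPM in WT in S-phase cells and 91.7 compared with 112 CPM in comparison cells (difference of log2 fold changes −0.57 ± 0.10, SE, adjusted p = 0.0224, edgeR), a call that was lost without WT replicate 1 or 3.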

How the data were processed

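Single-cell 3′ RNA-Seq (10x Genomics, CellPlex) was measured in 4 genotypes. For each barcode the deposited matrices hold UMI counts, which the authors made with Cell Ranger (7.0.1 in the matrix header, and mm10 in the submitters' processing notes, which also list Seurat), assigned to cultures by tag and cleared of multiplets by tag. They are raw counts of 32285 genes, and the 12 tags were left out of totals. No doublet caller was run, and doublets within a culture remain.

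Members, lists and the rule for named genes were chosen with earlier results of these data known. Cells were classed by summed macrophage against stromal markers (at least 10 UMIs and 4 times the other). UMIs were summed per tagged culture and fitted over all 11 cultures in edgeR 4.0.16 (quasi-likelihood, TMM, its filter on low counts, Benjamini-Hochberg adjustment, R 4.3.3). Named genes are those the lists hold and the 10 largest changes each way past the threshold without overlap between cultures (5 for the difference between phases, described only with a mean of at least 20 CPM in 1 of the groups, a limit set with the values known). Shares were compared by exact two-sided permutation in scipy 1.17.1 with Python 3.11.15. On simulated counts, 90.4% of 200 genes changed 4-fold in Dmp1KO compared with WT were recovered with 11.4% false calls among 10198 genes, and 75.3% with 17.8% among 13127 genes for the difference between phases. Alternatives were other factors, DESeq2 1.42.0, no filter, other thresholds and scores, thinning to 1300, 3000 or 6000 UMIs, untagged cells, macrophage-marker cells only, the replicate number as a block and each culture left out. Same-numbered cultures did not deviate together (mean correlation −0.03 over 15 pairs, −0.26 to 0.25, and 3 of 11 cultures closest to their own number), so numbers were not taken as pairs.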

Additional observations from a re-analysis of the deposited data

Results flagged for a closer look

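The untagged Dmp1KO Fgf23cKO cells stood apart from the 3 tagged cultures in depth. Their S-phase cells had 6.18 times the median UMIs of comparison cells, compared with 1.62 to 2.29 times in the tagged cultures, a value over 6 S-phase and 178 comparison cells with macrophage markers. Dixon's test at 95% singled out this value alone, and chance singles out about 1 in 20 groups. These cells entered no test reported as the main value.

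The change between genotypes differed between S-phase and comparison cells (edgeR, culture as a block, adjusted p of 0.1) for 3 genes higher and 2 lower in Fgf23cKO compared with WT, 176 and 125 in Dmp1KO compared with WT, 52 and 14 in Dmp1KO Fgf23cKO compared with WT, and 342 and 164 in Dmp1KO Fgf23cKO compared with Dmp1KO. The genes described here are those among the 5 largest differences each way that reached a mean of 20 CPM in at least 1 of the groups compared. In Fgf23cKO they were *Exoc3l2* (difference of log2 fold changes 4.70), *Spp1* (1.14), the histone methyltransferase *Ezh2* (0.83), *C920021L13Rik* (−3.37) and *Hmgb2* (−0.57). *Exoc3l2* also differed in Dmp1KO (4.85) and Dmp1KO Fgf23cKO (4.14), comparisons that share the WT cultures. It stood at 23.1 CPM in WT comparison cells and 1.05 CPM in WT S-phase cells, and at 5.82 and 6.98 CPM in Fgf23cKO, 1.995 and 2.56 CPM in Dmp1KO, and 5.24 and 4.10 CPM in Dmp1KO Fgf23cKO. The Fgf23cKO S-phase mean rests on replicate 3 (2.16, 1.34 and 17.4 CPM), and without it the call was lost. Across the fits with 1 culture left out the *Exoc3l2* call held in 4 of 6 for Fgf23cKO, 5 of 5 for Dmp1KO and 1 of 6 for Dmp1KO Fgf23cKO.

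*Spp1* stood at 667 CPM in S-phase and 1489 CPM in comparison cells of WT, and at 1437 and 1488 CPM in Fgf23cKO. *Ezh2* was at 236 CPM in Fgf23cKO and 237 CPM in WT S-phase cells, and at 28.6 and 49.3 CPM in comparison cells. *C920021L13Rik* was at 1.57 compared with 40.3 CPM in S-phase and 4.68 compared with 11.9 CPM in comparison cells. Without WT replicate 3 the Fgf23cKO calls of *Spp1*, *Ezh2*, *C920021L13Rik* and *Hmgb2* were all lost. Across the fits with 1 culture left out these calls held in 5, 4, 2 and 4 of 6, in the same order.

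*Plxna4*, a semaphorin receptor, differed in Dmp1KO compared with WT (−3.07), at 2.53 compared with 52.7 CPM in S-phase and 6.57 compared with 13.9 CPM in comparison cells, and its call held in 1 of 5 fits with 1 culture left out. In Dmp1KO Fgf23cKO compared with WT the named genes were the chromosome motor *Kif4* (2.30), *Gm16124* (−3.94), *Mmp9* (−2.96) and *Tulp3* (−2.52). *Kif4* was at 135 compared with 107 CPM in S-phase and 0.789 compared with 2.96 CPM in comparison cells, and *Mmp9* at 4.19 compared with 75.2 CPM and 39.6 compared with 78.8 CPM. *Kif4* in WT comparison cells was at 0.74, 6.57 and 1.57 CPM, and *Mmp9* in Dmp1KO Fgf23cKO comparison cells at 25.5, 91.96 and 1.33 CPM, so that replicate 2 carried each mean. With 1 culture left out the differences ran from 1.01 to 2.65 for *Kif4* (lowest without WT replicate 2), −3.59 to −1.56 for *Mmp9* and −2.92 to −1.70 for *Tulp3*, and these calls held in 3, 2 and 2 of 6 fits. The call of *Gm16124* held in 6 of 6. In Dmp1KO Fgf23cKO compared with Dmp1KO they were the fusion protein gene *Dcstamp* (3.95), *Dach1* (−8.84), *C77080* (−3.89) and the WNT antagonist *Dkk2* (−3.28). *Dach1* was at 0 compared with 147 CPM in S-phase and 4.62 compared with 134 CPM in comparison cells, so that its difference rests on a group at 0, and the call was lost without Dmp1KO Fgf23cKO replicate 1. *Dcstamp* in Dmp1KO Fgf23cKO S-phase cells was at 4.14, 2.03 and 34.5 CPM, and its difference ran from 1.83 to 5.12 with 1 culture left out, with the call lost without Dmp1KO Fgf23cKO replicate 3 or Dmp1KO replicate 2. The calls of *C77080* and *Dkk2* held in 5 of 5 fits.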

How the results depend on the processing

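Several genotype directions of the S-phase share and of the S to G2 ratio turned. With *Pclaf* and *Rrm2* alone the share differences were −1.10 (Fgf23cKO minus WT), −1.19 (Dmp1KO minus WT) and 0.436 points (Dmp1KO Fgf23cKO minus Dmp1KO), and with thinning to 6000 UMIs the first 2 were −0.462 and −0.584. With untagged cells included, Dmp1KO Fgf23cKO minus WT was −1.60 and minus Dmp1KO −2.35 points (exact permutation p = 0.0286 for each), and the log2 ratio of S-phase to G2 and mitotic cells was 0.753 (exact permutation p = 0.0857) for Fgf23cKO minus WT, 0.0930 for Dmp1KO minus WT and −0.293 for Dmp1KO Fgf23cKO minus Dmp1KO, with p = 0.163 (exact permutation) over genotypes. The untagged cells come from the same pooled cultures, so these p-values count more samples than there were distinct cultures. At an adjusted p of 0.05 the edgeR counts were 532 higher and 492 lower in Fgf23cKO compared with WT, and for the difference between phases 110 and 58 in Dmp1KO compared with WT, 18 and 3 in Dmp1KO Fgf23cKO compared with WT, and 207 and 100 in Dmp1KO Fgf23cKO compared with Dmp1KO. The causes were not tested. Dmp1KO Fgf23cKO stayed below WT in share in all alternatives run.

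With each culture left out in turn, the exact permutation p over genotypes ran from 0.0161 to 0.120 for the share and from 0.0107 to 0.0679 for the ratio. The share differences ran from 0.277 to 1.05 points (Fgf23cKO minus WT), −0.527 to 1.17 (Dmp1KO minus WT, lowest without Dmp1KO replicate 2), −1.95 to −1.30 (Dmp1KO Fgf23cKO minus WT) and −2.82 to −1.12 (minus Dmp1KO), and the difference between marker classes from 3.73 to 4.26. The ratio differences ran from 0.541 to 0.796, −0.462 to 0.0438, −0.145 to 0.0697 and −0.103 to 0.404 in the same order. In order of the 4 comparisons, genes higher ran from 513 to 716 (lowest without WT replicate 3, 523 without WT replicate 2), 1520 to 1932, 884 to 1320 (lowest without WT replicate 3) and 787 to 1719 (lowest without Dmp1KO replicate 2, 843 without replicate 3), and genes lower from 475 to 661 (lowest without WT replicate 3), 1053 to 1887 (lowest without Dmp1KO replicate 2, 1157 without replicate 3), 891 to 1125 and 1221 to 1636. For the difference between phases, genes higher ran from 0 (without WT replicate 3) to 24 (without Fgf23cKO replicate 3), 60 to 117, 5 to 56 and 70 to 247, and lower from 0 to 5, 32 to 81, 4 to 13 and 29 to 193.

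With the replicate number as a block, the exact permutation p for the share was 0.0625, and edgeR called 812 and 722, 2066 and 2030, 1346 and 1174, and 1731 and 1719 genes higher and lower in the 4 comparisons. The numbers do not pair the cultures. Unadjusted p under 0.05 was reached by 2498, 4400, 3231 and 3919 genes in S-phase cells.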
